A study of Rattus norvegicus with 23 samples.

Results

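The results concern the change in gene expression between day 3 and day 7 in cut rat median nerves of the series labelled EV. The comparison sets the 3 day 7 libraries against the 3 day 3 libraries, 6 of the 23 RNA-seq libraries in the table, over all 32545 gene identifiers. The libraries came from wild-type adult female Rattus norvegicus whose median nerve was transected, with a gap of 8 mm. According to the series design, repair used a 10 mm muscle-in-vein graft. The treatment label of EV gives repair of the cut without naming MIV, whereas that of the companion series MIV adds it. The labels do not spell out the letters EV. Untreated median nerve (n = 5), vein (n = 3) and muscle (n = 3) give the healthy levels, and MIV has 3 libraries at each day. Whether each library is a separate animal is not stated in the labels, and the p-values therefore reflect variation among these samples only, which may be technical.

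After a nerve is cut, axons beyond the injury degenerate, myelin is cleared by Schwann cells and macrophages, and Schwann cells leave the myelinating state for a repair state. Blood vessels and fibroblasts grow into the space between the stumps and form a bridge along which Schwann cells and axons later advance. A vein conduit guides this growth, and muscle placed inside it keeps the vein from collapsing and offers basal lamina to the growing cells.

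The 6 EV libraries held 12504035 to 15268422 counts, and 11694 identifiers had no count in any of them. The identifiers matched no gene name in the reference table used, so the nerve label could not be checked against marker genes, and the results are given for gene groups defined without the EV libraries. In bulk tissue, fewer cells of a type and less RNA per cell cannot be told apart. The day 7 libraries resembled each other more closely (Pearson r of log2 CPM across genes 0.966 to 0.967) than the day 3 libraries did (0.942 to 0.966). CPM is the scaled count relative to the library's total. Replicate 1 of day 3 stood apart from the other day 3 libraries in the direction of day 7: it correlated at 0.926 to 0.933 with the day 7 libraries, against 0.867 to 0.906 for replicates 2 and 3. Replicate 2 of MIV day 7 also stood apart from its group.

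Between day 3 and day 7, 1415 of 15036 tested genes rose (9.41%) and 1532 fell (10.2%), so 2947 genes (19.6%) changed (edgeR's quasi-likelihood test, Benjamini-Hochberg adjusted p under 0.05). At an unadjusted p under 0.05, 5244 genes (34.9%) passed. The log2 fold change was positive in 7642 genes (50.8%), called or not, and its median over all tested genes was 0.01. The rises were larger than the falls in size. The median rise was 1.48 on the log2 scale (quartiles 0.90 and 2.37), and the median fall was 0.92 (quartiles 0.68 and 1.56). More than 4-fold, 469 genes rose (3.12% of those tested) and 258 fell (1.72%). Among all tested genes, 3396 (22.6%) were higher in every day 7 library than in any day 3 library, and 3498 (23.3%) were lower. The groups did not overlap in 1409 of the 1415 rises and 1524 of the 1532 falls. The number of rises depended on single libraries. It was 1470 without replicate 1 of day 3, 499 without replicate 2 and 681 without replicate 3. It was 744, 836 and 678 without replicates 1, 2 and 3 of day 7. The number of falls was 1387, 891 and 904 without replicates 1, 2 and 3 of day 3. It was 867, 1032 and 819 without replicates 1, 2 and 3 of day 7. None of the 2947 genes changed sign in any of these fits in which it was tested.

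The rises were concentrated in few genes and the falls were spread over many. The genes that rose went from 55602 to 143990 CPM in sum, and the 10 largest gains made up 38.8% of the increase. The genes that fell went from 152980 to 76184 CPM, and the 10 largest losses made up 14.1% of the decrease. Genes that rose had a median level of 18.9 CPM over the 6 libraries, near the 18.5 CPM of all tested genes, and genes that fell had 32.7 CPM. No count in any day 3 library and a count in every day 7 library was found for 168 identifiers. Of these, 16 were tested and 11 rose, and the 11 are among the rises given above. The 168 identifiers had a median total of 9 counts over the day 7 libraries. The reverse held for 62 identifiers, of which 11 were tested and 6 fell. Each EV day 7 library held counts for more identifiers (17984 ± 193, SD, n = 3) than each day 3 library (17359 ± 194). With 3 against 3 libraries the two-sided exact permutation test cannot give less than p = 0.1, the value found here, which is also the adjusted value over the 10 library measures compared.

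Genes were then placed in classes by the 11 healthy libraries alone. A class such as nerve-enriched holds genes more than 1 log2 unit higher in healthy nerve than in both vein and muscle, with an adjusted p under 0.05 in each comparison. Of the 1176 vein-enriched genes, 1116 were tested, and 266 of these rose (23.8%) while 30 fell (2.69%). Of the 1531 nerve-enriched genes, 1191 were tested, and 211 rose (17.7%) while 79 fell (6.63%). Genes shared by nerve and vein behaved likewise, with 364 of 2076 tested genes rising (17.5%) and 129 falling (6.21%). Muscle-enriched genes went the other way, with 94 of 2722 tested genes rising (3.45%) and 391 falling (14.4%). Among all tested genes, 9.41% rose and 10.2% fell. The median log2 fold change was 0.74 in vein-enriched, 0.36 in nerve-enriched, 0.29 in nerve-and-vein and -0.15 in muscle-enriched genes, against 0.01 in all tested genes.

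The remaining classes did not all go the same way. Genes that met none of the enriched or shared patterns, labelled no such difference, may still differ between some healthy tissues. They made up 43.8% of the tested genes and 47.9% of all falls. Of these 6580 genes, 734 fell (11.2%) and 406 rose (6.17%). Of the 17641 genes low in all the healthy tissues, 892 were tested. In these, 127 fell (14.2%), of which 102 fell more than 4-fold, and 26 rose (2.91%). The filter kept these genes for their counts in the repaired libraries, at times in 1 group only. Large changes in this class are therefore partly set by the filter. Genes shared by muscle and vein rose in 29 of 183 cases (15.8%) and fell in 8 (4.37%). Genes shared by nerve and muscle rose in 19 of 276 (6.88%) and fell in 34 (12.3%), near the shares of all tested genes (9.41% and 10.2%). The class counts moved with the same libraries as the totals. Leaving out 1 EV library at a time, the rises numbered 97 to 308 in vein-enriched, 65 to 187 in nerve-enriched and 149 to 383 in nerve-and-vein genes, each lowest without replicate 2 of day 3. At that lowest point, 8.69% of vein-enriched and 5.46% of nerve-enriched genes rose, against 3.23% of all tested genes. Falls in muscle-enriched genes numbered 165 to 347, lowest without replicate 3 of day 7, where 6.06% of the class fell against 5.35% of all tested genes.

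**Figure D1:**
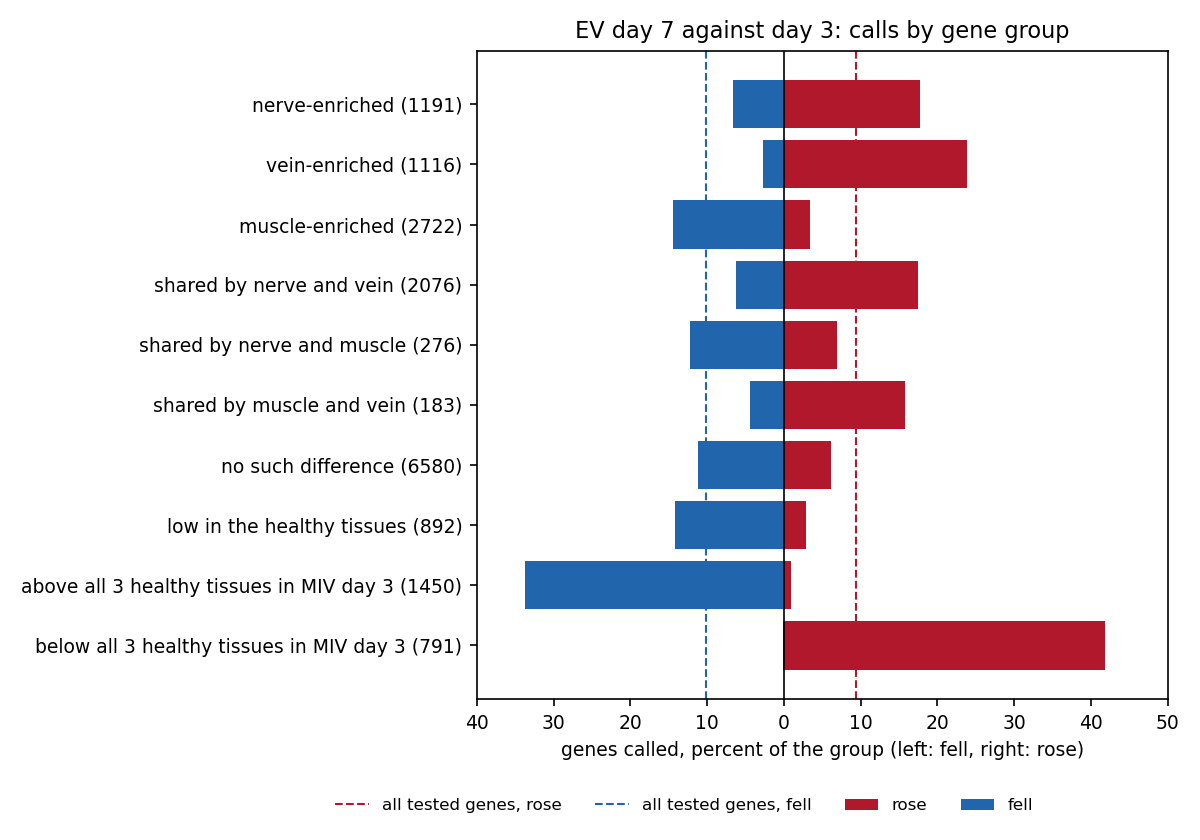
Share of each gene group called in EV day 7 against day 3; bars to the right show genes that rose, bars to the left genes that fell, in percent of the tested genes of the group (number in brackets), and dashed lines show the share among all tested genes. Vein-enriched (23.8%) and nerve-enriched genes (17.7%) rose more often than all tested genes (9.41%), and muscle-enriched genes fell in 14.4% against 10.2%.

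Within the nerve- and vein-enriched classes, the more tissue-restricted genes had the larger median change. In vein-enriched genes the median log2 fold change was 0.55 at an enrichment of 1 to 2 log2 units, 0.99 at 2 to 4 and 1.62 above 4. In nerve-enriched genes the medians were 0.16, 0.43 and 0.86. The share that rose did not follow this order in either class. It was 17.8%, 17% and 18.9% in nerve-enriched genes and 21.2%, 28.1% and 24.3% in vein-enriched genes. In muscle-enriched genes the medians were -0.18, -0.17 and 0.16, and the share that fell was 18.6%, 10.8% and 6.67%. The falls of this class thus lay mostly among the weakly restricted genes. Across all tested genes, 9.41% rose and 10.2% fell.

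Set against the healthy tissue, vein-enriched genes moved further towards their reference than nerve-enriched genes did in median level. The median tested vein-enriched gene stood at 34.6% of its healthy vein level at day 3 and at 57.2% at day 7. The number of vein-enriched genes within 2-fold of the vein level was 344 at day 3 and 559 at day 7, and the number below 10% of it was 215 and 54. The median nerve-enriched gene stood at 22.4% of its healthy nerve level at day 3 and at 29.8% at day 7. Within 2-fold of the nerve level were 232 genes at day 3 and 303 at day 7, and below 10% were 391 and 266. The median muscle-enriched gene stood at 23.1% and 22.1% of its muscle level. The difference between the classes was not tested.

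Summed over all members, tested or not, the classes took different shares of each library. Vein-enriched genes took 7.58%, 6.73% and 5.85% of the counts in replicates 1 to 3 of day 3, and 9.90%, 9.37% and 10.1% at day 7. All day 7 libraries were higher than all day 3 libraries, and healthy vein held 18.2% ± 1.28 (SD, n = 3). Nerve-enriched genes took 5.94%, 6.10% and 5.79% at day 3 and 6.07%, 6.32% and 5.89% at day 7. These ranges overlap, although more of these genes rose than fell, and both lie far under the 26.6% ± 1.54 (SD, n = 5) of healthy nerve. Muscle-enriched genes took 18.8% ± 1.23 of the counts at day 3 and 17.2% ± 0.62 at day 7 (SD, n = 3), and the groups did not overlap. Healthy nerve itself held 16.2% ± 1.18 (SD, n = 5) in muscle-enriched genes and healthy vein 16.9% ± 0.62 (SD, n = 3).

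The nerve-enriched class was split by the level its genes had in the MIV day 3 libraries, which share no library with EV. Of the 370 tested genes at or below 10% of their healthy nerve level in MIV day 3, 124 rose in EV (33.5%), 3 fell (0.811%), and the median log2 fold change was 1.56. Their median level in EV went from 2.92% to 8.19% of healthy nerve. Genes so low at day 3 could hardly fall further, and the filter could keep them for their day 7 level alone. The excess of rises in this band is therefore partly set in advance. Of the 333 genes above 50% of the nerve level in MIV day 3, 10 rose (3%) and 59 fell (17.7%), with a median of -0.38, and their median level went from 91.7% to 75.1%. The 2 bands between held 246 genes with 46 rises (18.7%) and 7 falls (2.85%), and 242 genes with 31 rises (12.8%) and 10 falls (4.13%). For comparison, 9.41% of all tested genes rose and 10.2% fell, and in the whole class 17.7% rose and 6.63% fell. Rises outnumbered falls in the lower 3 bands and falls outnumbered rises in the highest, and the difference between bands was not tested.

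The same companion libraries were used to define genes above or below the healthy tissues at day 3, called raised and lowered genes. What raised or lowered them was not tested. Genes above all 3 healthy tissues in MIV day 3, by more than 1 log2 unit with an adjusted p under 0.05 against each, numbered 1452, and 1450 were tested. In EV, 488 of these fell (33.7%), 193 of them more than 4-fold, and 14 rose (0.966%). The median log2 fold change was -0.95. Genes below all 3 healthy tissues in MIV day 3 numbered 856, and 791 were tested. In EV, 331 of these rose (41.8%) and 1 fell (0.126%), with a median of 1.38, and 166 rose more than 4-fold. For comparison, 9.41% of all tested genes rose and 10.2% fell. More than 4-fold, 3.12% of all tested genes rose and 1.72% fell. The rises in the second group numbered 376, 139 and 179 without replicates 1, 2 and 3 of day 3. They numbered 193, 231 and 180 without replicates 1, 2 and 3 of day 7. Without replicate 2 of day 3, where the count was lowest, 17.6% of the second group rose, against 3.23% of all tested genes. The filter could keep genes of the second group for their day 7 level alone, and those of the first for their day 3 level alone. Genes chosen as high at day 3 had more room to fall, and those chosen as low had more room to rise. The excess of falls in the first group and of rises in the second is therefore partly set in advance.

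The median EV level of the raised genes was 25.2 CPM at day 3 and 11.8 CPM at day 7, against 2.89 CPM in healthy nerve. That of the lowered genes was 3.54 CPM at day 3 and 10.1 CPM at day 7, against 29.3 CPM in healthy nerve. Both groups therefore moved towards the healthy level and did not reach it in median by day 7. The raised genes took 15.6%, 19.0% and 19.9% of the counts in replicates 1 to 3 of day 3 and 11.9%, 13.6% and 11.4% at day 7. The lowered genes took 1.68%, 1.19% and 0.996% at day 3 and 3.86%, 3.50% and 4.09% at day 7. In both groups the days did not overlap, and replicate 1 of day 3 was the day 3 library nearest to day 7.

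**Figure D2:**
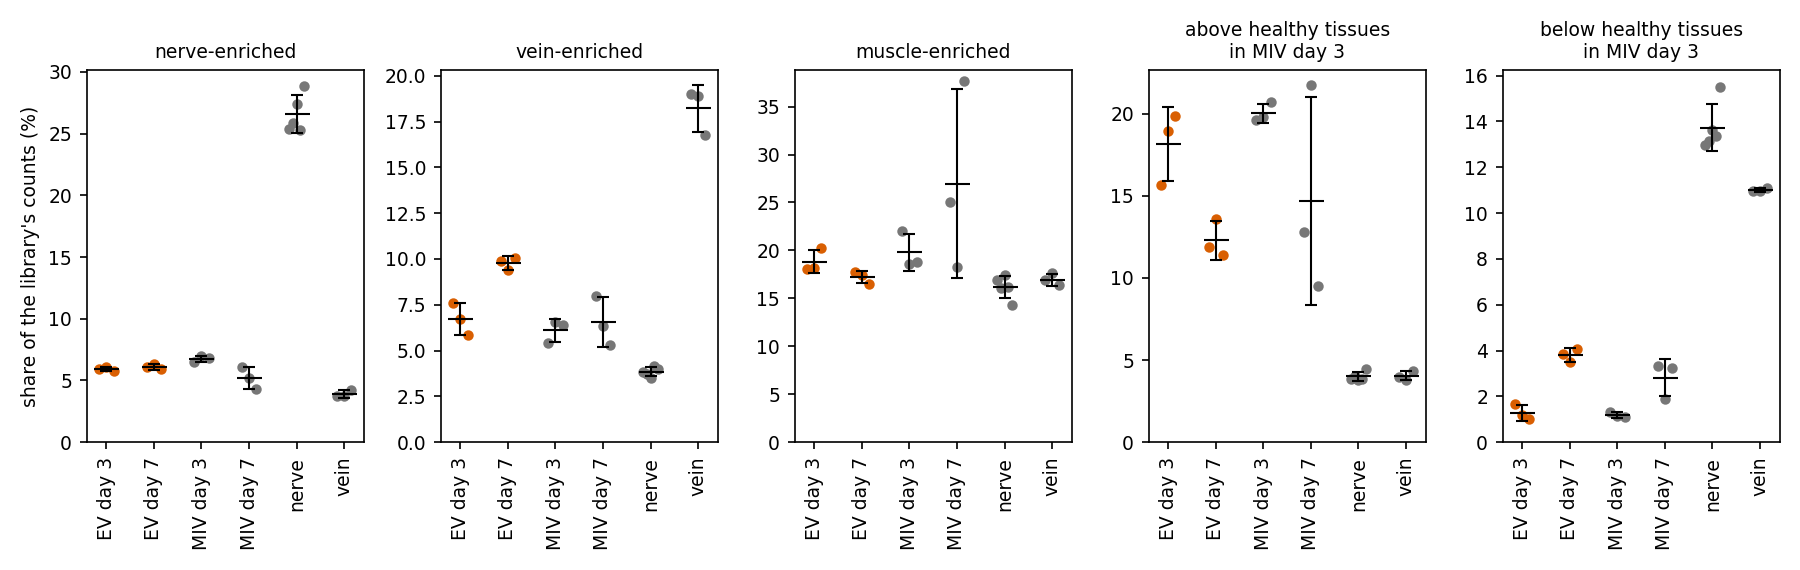
Share of each library's counts (percent) taken by 5 gene groups; points are libraries (orange EV, grey others), and horizontal marks and bars are mean and SD. In EV the share of vein-enriched genes is higher in all day 7 libraries (9.37% to 10.1%) than in all day 3 libraries (5.85% to 7.58%), whereas that of nerve-enriched genes overlaps; each panel has its own scale.

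The EV libraries as a whole lay nearer to the healthy tissues at day 7. The correlation of log2 CPM with mean healthy nerve was 0.790, 0.754 and 0.747 in replicates 1 to 3 of day 3 and 0.849, 0.842 and 0.846 at day 7. With mean healthy vein it was 0.835, 0.794 and 0.774 at day 3 and 0.899, 0.891 and 0.906 at day 7. In each of the 6 libraries the correlation with vein was higher than that with nerve. These correlations are across genes, which are not independent replicates, and they describe the libraries only.

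The EV libraries were also placed on the line from mean MIV day 3 (0%) to mean MIV day 7 (100%), with muscle-enriched genes left out. The day 3 replicates 1 to 3 lay at 29.8%, 3.76% and 3.12%, and the day 7 replicates at 93.6%, 95.3% and 104.7%. Over all tested genes, muscle-enriched genes included, the day 3 replicates lay at 16.4%, -6.69% and -8.79% and the day 7 replicates at 75.05%, 76.7% and 86.1%. Along the line, EV day 7 thus lay at 79.3% ± 5.97 (SD, n = 3) over all genes and at 97.9% ± 5.99 without the muscle-enriched genes. Leaving these genes out also moved the EV day 3 mean, from 0.293% to 12.2%. The MIV day 7 replicates 1 to 3 themselves lay at 105.95%, 80.3% and 113.7% over all genes, so replicate 2 fell within the EV day 7 range. Without the muscle-enriched genes they lay at 103.7%, 92.1% and 104.2%. The distance of a library from the line was not measured, so a position near 100% does not show likeness to MIV day 7. The 2 days did not overlap on either line, and replicate 1 of day 3 lay further along than the other day 3 libraries.

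**Figure D3:**
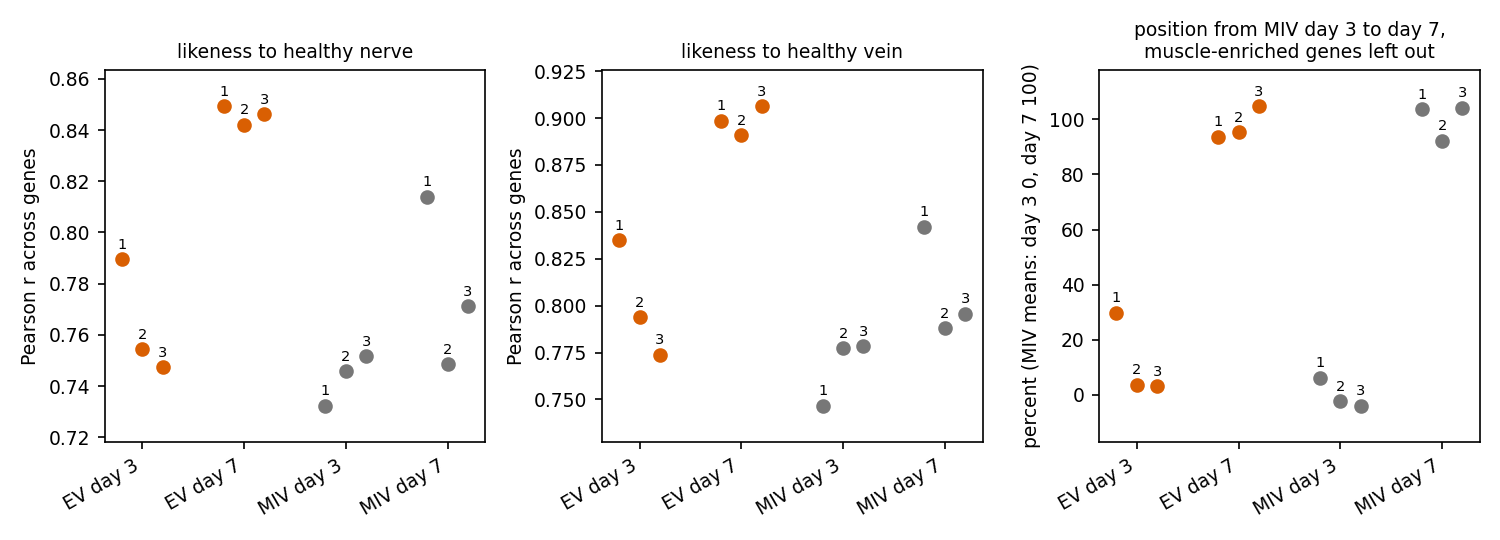
Correlation of each library with mean healthy nerve and mean healthy vein (Pearson r across genes), and its position in percent on the line from mean MIV day 3 to mean MIV day 7; points are libraries, numbered by replicate, with EV in orange and MIV in grey, and the axes do not start at 0. All 3 EV day 7 libraries lie above all 3 EV day 3 libraries in each panel, and replicate 1 is the highest of EV day 3.

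The MIV series changed over the same days in 1111 rises (7.39%) and 1216 falls (8.09%), and it shares no library with EV. Of the 1415 genes that rose in EV, 1385 (97.9%) had a positive log2 fold change in MIV, and of the 1532 that fell, 1477 (96.4%) had a negative one. Of all tested genes, 53.8% had a positive log2 fold change in MIV. The rises called in both series numbered 702, which is 49.6% of the EV list and 63.2% of the MIV list. The falls called in both numbered 861, or 56.2% of the EV list and 70.8% of the MIV list. The EV rises had a median log2 fold change of 1.48 in EV and 1.07 in MIV, and the EV falls -0.92 and -0.71. The genes were chosen by their EV values, so the larger EV medians are a description.

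The difference between the EV and MIV changes was tested gene by gene. No gene passed (0 genes, 0%) with edgeR's quasi-likelihood test after adjustment, and 796 genes (5.29%) had an unadjusted p under 0.05. DESeq2 called 17 genes and limma voom 0, and edgeR called 3 without replicate 2 of MIV day 7. A difference in a single gene was thus not detectable in most of these fits, which does not show that the series changed alike. By class, the muscle-enriched genes were the ones with a median of opposite sign in the 2 series, -0.15 in EV and 0.20 in MIV, apart from the genes shared by nerve and muscle, whose EV median rounded to 0. MIV had 220 rises and 110 falls in this class, against the 94 rises and 391 falls of EV. The EV minus MIV difference was positive in 18.8% of them, with a median of -0.35, against 47.1% and -0.03 in all tested genes. The class made up 18.1% of the tested genes and held 332 of the 796 unadjusted differences. In genes enriched more than 4 log2 units in muscle the median was 0.16 in EV and 1.72 in MIV. MIV day 7 was uneven in this class, which took 18.2% to 37.6% of the counts of its libraries. The class difference was not tested. Of the 391 muscle-enriched genes that fell in EV, 38 (9.72%) had a positive log2 fold change in MIV, whereas in the other classes at most 3.15% of the falls did. Their median was -0.78 in EV and -0.34 in MIV.

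**Figure D4:**
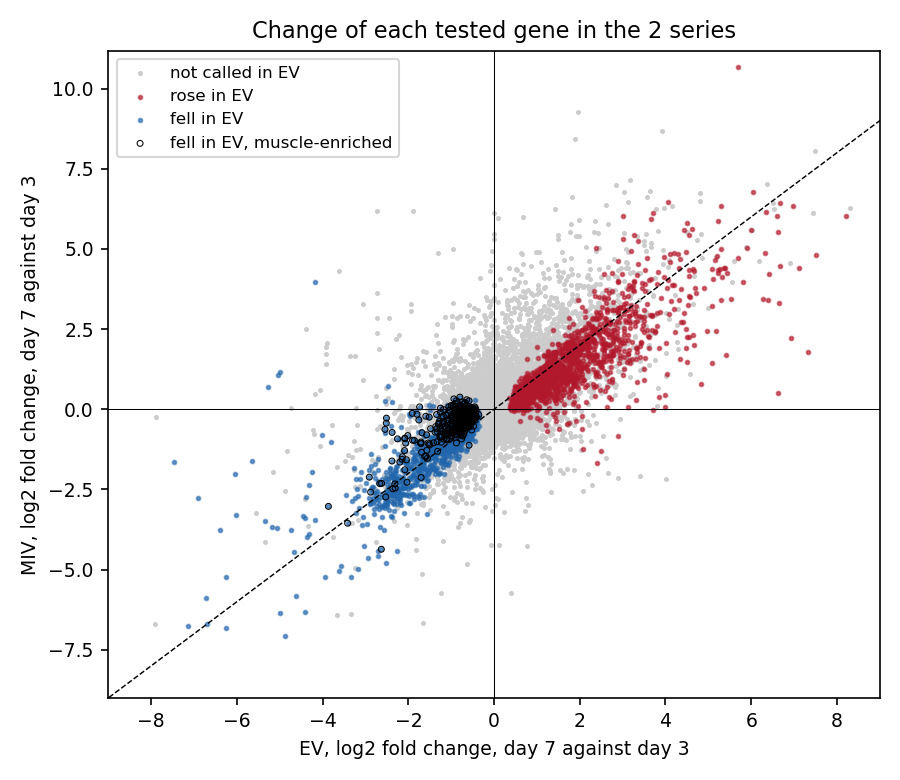
Log2 fold change of each tested gene from day 3 to day 7 in EV (horizontal) and in MIV (vertical); red points rose in EV, blue points fell, grey points were not called, black circles mark muscle-enriched genes that fell in EV, and the dashed line marks equal change. Most red points (97.9%) and blue points (96.4%) have the same sign in MIV, and the black circles have a median of -0.78 in EV and -0.34 in MIV, with 38 of 391 above 0 in MIV.

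The identifiers named here show the largest changes at a level of at least 10 CPM. They lead, 2 in each direction, the 1011 rises and 1351 falls that met this level and had no overlap between days. ENSRNOG00000005348, a nerve-enriched gene, was at 1.35, 0.645 and 0 CPM in replicates 1 to 3 of EV day 3 and at 39.8, 69.8 and 49.6 CPM at day 7. It went from near absence to below its mean in healthy nerve, 74.3 ± 18.2 CPM (SD, n = 5), and the days did not overlap. The log2 fold change was 6.35 (SE 1.05), with an adjusted p of 0.00335 by edgeR's quasi-likelihood test. It was 7.39 without replicate 1 of day 3 and 5.73 without replicate 3. In MIV the gene went from 0.822 to 56.6 CPM in the mean.

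ENSRNOG00000023007, also nerve-enriched, was at 2.36, 0.710 and 1.12 CPM at day 3 and at 131.0, 79.3 and 125.6 CPM at day 7. All day 7 libraries lay above each healthy nerve library, which ranged from 12.2 to 38.1 CPM. The log2 fold change was 6.33 (SE 0.62, adjusted p = 0.000402 by edgeR's quasi-likelihood test). It was 6.93 without replicate 1 of day 3. In MIV the gene went from 2.14 to 61.5 CPM in the mean.

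ENSRNOG00000002916 met none of the enriched or shared patterns and so carries the label no such difference. Its healthy levels still differed, with at least 4.99 CPM in each muscle library against at most 3.35 CPM in nerve and 3.24 CPM in vein. In EV the gene was at 4.66, 24.9 and 48.7 CPM at day 3 and at 0.251, 0 and 0.695 CPM at day 7. The log2 fold change was -6.26 (SE 1.03, adjusted p = 0.00331 by edgeR's quasi-likelihood test). Replicate 1 was the lowest of the day 3 libraries and still lay above all day 7 libraries. The log2 fold change was -5.44 without replicate 3 of day 3 and -7.59 without replicate 3 of day 7. In MIV the gene went from 36.2 to 0.307 CPM in the mean.

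ENSRNOG00000023633, a vein-enriched gene, was at 15.8, 43.1 and 137.4 CPM at day 3 and at 0.314, 1.89 and 0.374 CPM at day 7. It fell against the direction of most changed genes of its class, from above to below healthy vein, which stood at 9.01 ± 3.94 CPM (SD, n = 3). The log2 fold change was -6.26 (SE 0.97, adjusted p = 0.00244 by edgeR's quasi-likelihood test). It was -5.10 without replicate 3 of day 3 and -7.53 without replicate 2 of day 7. In MIV the gene went from 36.9 to 0.968 CPM in the mean, and none of the 4 genes passed the test of a difference between the series.

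**Figure D5:**
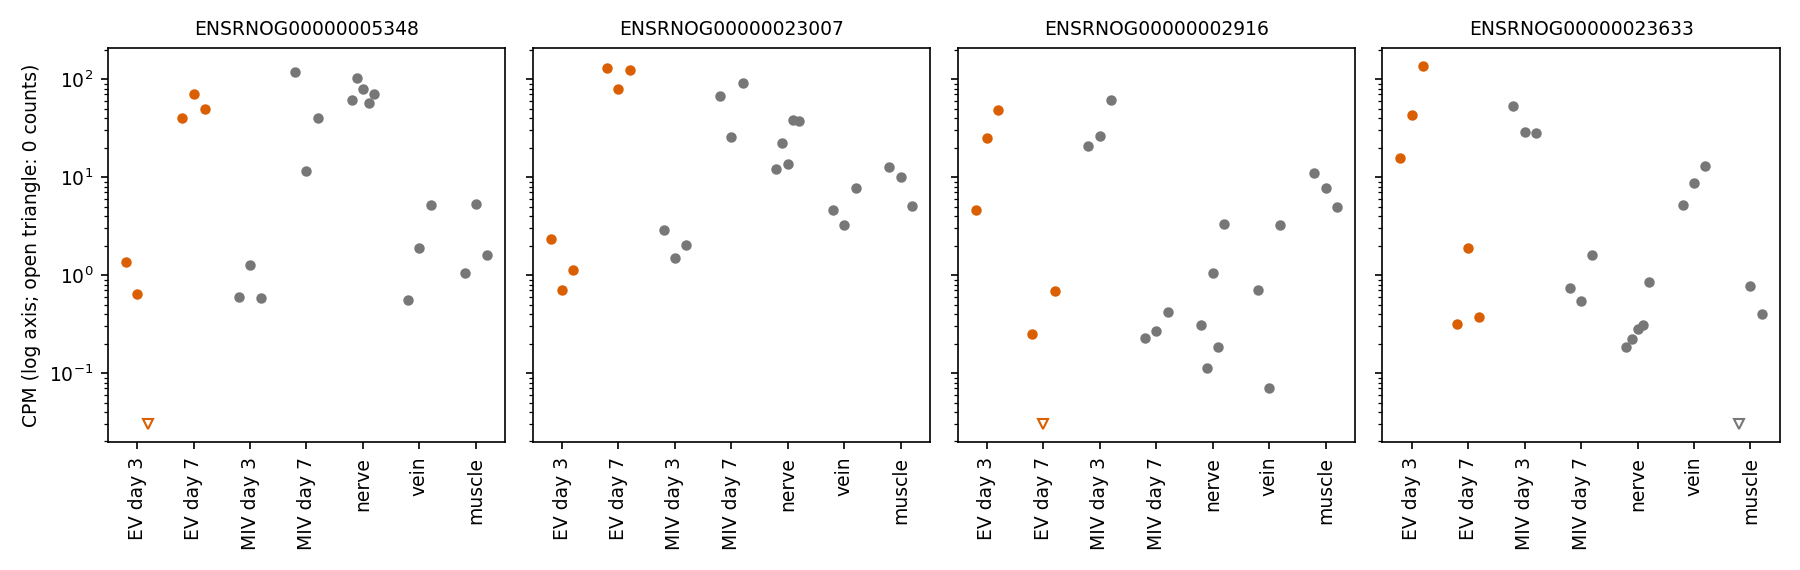
CPM (log axis) of the 4 identifiers in every library, EV in orange and the other groups in grey; open triangles at the foot mark libraries with 0 counts. The first pair lies at 0 to 2.36 CPM in EV day 3 and at 39.8 to 131.0 CPM in EV day 7, and the second pair at 4.66 to 137.4 CPM in EV day 3 and at 0 to 1.89 CPM in EV day 7.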

How the data were processed

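RNA was extracted with TRIzol and mRNA was taken from 350 ng of total RNA with poly-T beads, per the labels' protocols. The libraries did not mark strand, so reads of a gene and of an antisense neighbour were counted without distinction, and counts of near-identical paralogs are uncertain. CASAVA and HISAT2 were used, per the submitters' processing notes, without versions. Which counter, build and annotation were used is not given in the sources used here. The authors deposited raw counts per Ensembl gene identifier and library, which were not normalized.

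Libraries were grouped by title. The analysis used edgeR 4.0.16 under R 4.3.3 on the 12 repaired libraries (filterByExpr with minimum count 10 and minimum total 15, TMM, robust glmQLFit and glmQLFTest, Benjamini-Hochberg adjustment over 15036 genes, threshold 0.05). The biological coefficient of variation was 37.1%. The SE of a log2 fold change was derived from its quasi-likelihood F statistic. Printed CPM use TMM factors over all 23 libraries, and log2 CPM a prior count of 2. The filter keeps a gene that is high in 1 group only, so counts of called class members cover the tested members. DESeq2 1.42.0 and limma 3.58.1 (voom), other scalings, no filter, other sets of libraries, a replicate block and leaving out each library were alternatives. The tests were checked on simulated data.

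None of the 32545 identifiers matched a symbol in the reference gene table (GRCr8, 0 matches), so 33 lists of gene symbols had 0 measured members and no gene names, positions or sequences are given. Named genes were ordered by log2 fold change among those with a symbol, a call at 0.05, at least 10 CPM on average at the higher day and no overlap between days. Without symbols, the rule takes the first 2 identifiers in each direction. The comparison, the gene classes and the lists were chosen with earlier results of these data known.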

Additional observations from a re-analysis of the deposited data

Results flagged for a closer look

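In healthy nerve, which supplied the reference level, 1 of 5 libraries lay far from the others in 2 measures. For ENSRNOG00000023633 that library held 0.855 CPM, against a median of 0.282 CPM in the group. For the genes below all healthy tissues in MIV day 3, replicate 5 gave them 15.5% of its counts, against at most 13.6% in the other 4. The criterion is Dixon's ratio of the gap next to the outermost library to the range of the group, above its 95% critical value, so chance alone marks about 1 in 20 groups, and the healthy libraries do not enter the fit of EV day 7 against day 3, although they define the gene classes.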

How the results depend on the processing

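The direction of change held in each alternative for every 1 of the 2947 called genes that it tested. The median over the genes tested in both fits moved by at most 0.03. The 4 named identifiers kept their call in 84 of 84 alternative fits, although single EV libraries moved their fold changes by over 1.5 times, as given with their values. They were picked from the same libraries for large changes without overlap, so kept calls were likely in advance. The number of calls moved. Rises numbered 2280 with all 23 libraries in the fit, 2197 with DESeq2 and 3207 with limma voom, and falls 3181 with limma voom. Leaving out 1 library at a time gave 499 to 1930 rises and 819 to 2100 falls, the highest values without replicate 2 of MIV day 7. With a replicate block within each series, 676 genes rose and 697 fell. Whether the replicate numbers pair the libraries is not known. Same-numbered EV libraries of the 2 days had correlations of their deviations of 0.06, 0.02 and -0.14. Libraries with different numbers had -0.28 to 0.27, and not every library correlated best with its own number. So few weak values cannot decide whether the libraries were paired. For the difference between the EV and MIV changes, DESeq2 called 17 genes, and leaving out 1 library gave 0 to 3. The causes were not tested. In all 21 alternatives the rises stood above the share of all tested genes in nerve-enriched, vein-enriched and nerve-and-vein genes, and the falls in muscle-enriched genes, where the margin was smallest under the replicate block (5.07% against 4.64%). The vein-enriched median was 0.99 without replicate 1 of EV day 3.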
